A study of Mus musculus with 3 samples.

Results

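The genes described here are 35 genes of the lysosome, out of 19059 genes counted in each library. They were taken by symbol from a fixed list and cover 9 peptidases, 8 glycosidases, 7 lipid hydrolases and their cofactors, 4 membrane proteins, 5 parts of the proton pump and 2 transcription factors. All 35 were present in the probe set. They were measured in CD45+ blood cells sorted from the livers of mice at postnatal day 0, in 3 libraries: Pex2+/+ (labelled WT), Pex2-/+ (labelled Het) and Pex2-/- (KO). Pex2 encodes a peroxin of the peroxisomal membrane that is needed to import enzymes into peroxisomes. Each genotype had 1 library, and the sources used here do not give how many animals went into it, the strain or the allele. No difference between genotypes has a replicate check, and no test was made. Intervals below are exact 95% intervals that cover counting error only.

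Lysosomes break down proteins, glycans and lipids delivered by endocytosis, phagocytosis and autophagy. Their hydrolases work in an acid lumen that a proton pump maintains, inside a membrane lined with heavily glycosylated proteins. Tfeb and Tfe3 activate many lysosomal genes when they enter the nucleus, a step controlled mainly by phosphorylation and not by the amount of their RNA. In the newborn liver, which still makes blood, macrophages take up the nuclei and debris of maturing red cells and carry a large lysosomal system.

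Cells were assigned to classes from marker genes, so each class is called like the cell type its markers name. The 4 main classes held, in labelled WT, labelled Het and KO in this order (as everywhere below), 62, 66 and 90 macrophage-like cells, 628, 606 and 1000 monocyte-like cells, 6265, 5211 and 5509 cells of the neutrophil lineage, and 1693, 1165 and 783 cells of the B lineage. The libraries differed in depth, with medians of 8218.5, 15558.5 and 19348 UMIs per barcode, and in the share of mitochondrial UMIs, at 0.143%, 0.183% and 0.312%. The part of either in the differences below was not tested, except by thinning cells to 3000 UMIs. Thinning left out cells with under 3000 UMIs, so it also changed which cells were compared. It kept 46, 41 and 82 of the macrophage-like cells and 1194, 1130 and 727 of the B-lineage cells. Pex2 itself was at 23.6, 53.3 and 0.0107 CPM (a gene's UMIs per 1000000 UMIs of the same cells). KO held 2 Pex2 UMIs in all, but Pex2 was higher in labelled Het than in labelled WT, so the controls are named by their labels only. The Y-linked gene Ddx3y had 7599, 1 and 3 UMIs, so labelled WT also differed from both other libraries in a sex-linked transcript. No whole cell barcode was shared between libraries (0 in each pair), while 961 to 1184 droplet barcodes occurred in both libraries of a pair. The 10 highest genes took 23.2%, 22.5% and 26.2% of UMIs, which lowers the CPM of all other genes most in KO.

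Lysosomal RNA was most abundant in macrophage-like cells. The 35 genes took a median of 3.45%, 3.63% and 3.72% of the UMIs of a macrophage-like cell and 1.31%, 1.38% and 1.29% of those of a monocyte-like cell. In granule-stage neutrophil-like cells the shares were 0.289%, 0.298% and 0.352%, and in B-lineage cells 0.321%, 0.346% and 0.401%. Macrophage-like cells had the highest level among the 8 disjoint classes for 25, 22 and 26 of the 35 genes. The median gene was 7.03 times as high in macrophage-like as in neutrophil-lineage cells in labelled WT and 7.06 times in labelled Het, and KO was close to these. Plasmacytoid dendritic-like cells came next, with median shares of 1.71%, 1.93% and 1.82%.

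**Figure D1:**
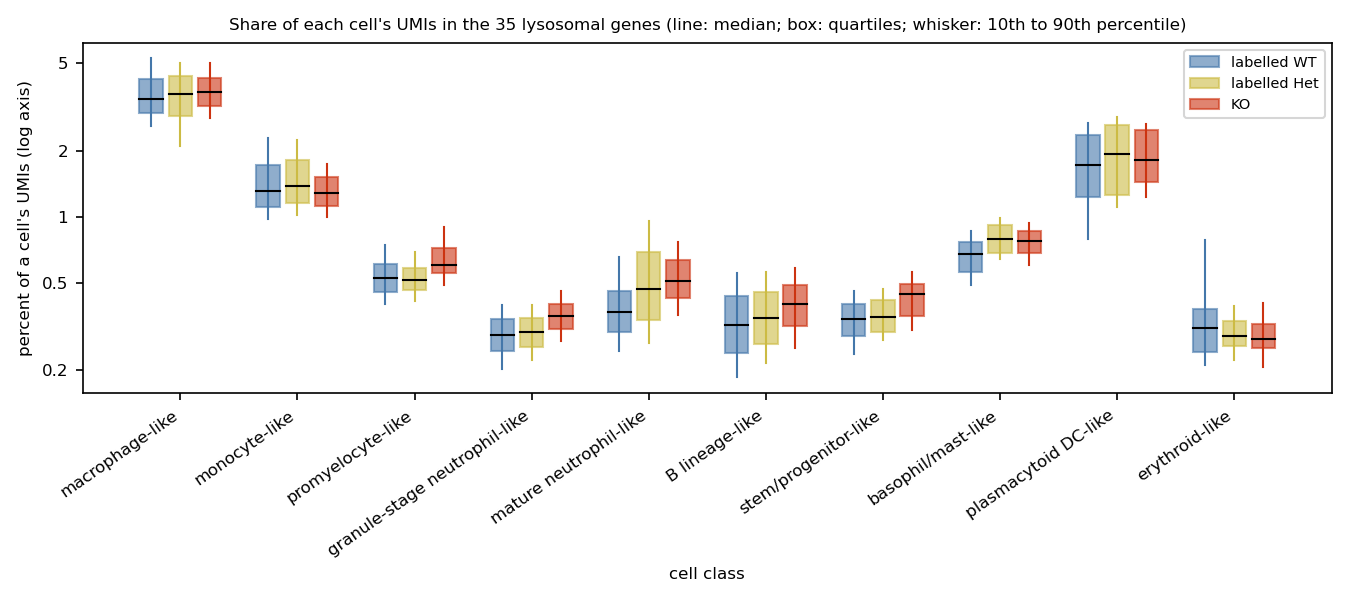
Percent of each cell's UMIs (log axis) that came from the 35 lysosomal genes, by cell class and library; lines are medians over cells, boxes quartiles and whiskers the 10th and 90th percentiles. Macrophage-like cells sit at 3.45% to 3.72% in the 3 libraries, and the KO median is the highest of the 3 in all neutrophil stages and in B-lineage cells.

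Summed over all sorted cells, the 35 genes took 0.480%, 0.484% and 0.564% of UMIs. This was 1.18 times labelled WT and 1.17 times labelled Het. The median gene of the list had a log2 ratio of 0.25 to labelled WT and 0.15 to labelled Het, where the median of all 8342 genes compared was -0.14 and -0.16. A gene entered the comparison of a class when it averaged 10 CPM or more and had 30 UMIs or more in all. It was counted as higher or lower in KO when it differed at least 1.5-fold from both controls in the same direction with both intervals excluding 1. By this rule 4 of 35 were higher, against a background of 2.73% of all genes, and 1 of 35 was lower, against 13.7%. The 4 were the peptidase Ctsh and the membrane proteins Lamp2, Scarb2 and Mcoln1, and the lower gene was Gaa. In Gaa the call is at the limit of the rule (37.4, 44.8 and 24.9 CPM) and was lost under each of the 3 other scalings, with doublets kept and with cells thinned to 3000 UMIs. Counting differences of any size whose intervals excluded 1, 19 members lay above both controls and 6 below both, against 24.6% and 50.0% of all genes. With TMM scaling, which raised the median log2 ratio of all genes by 0.28 and 0.34, 11 members were higher and 0 lower, against 11.7% and 6.08% of all genes. The mix of classes also differed between libraries, and when every class had the same weight in each library only Mcoln1 passed the rule, 1 of 35 against 2.85% of all genes.

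The counts were then taken within each class. In macrophage-like cells 5 of 35 were higher (Ctsl, Gla, Ppt1, Lamp2 and Mcoln1; background 9.19%) and 2 lower (Lipa and Gm2a; background 6.63%). Monocyte-like cells had 2 of 35 higher, Ctsh and Mcoln1, against 5.4% of all genes, and 0 lower, against 10.7%. In the neutrophil lineage 0 of 33 were higher (background 2.64%) and 1, Gaa, was lower (9.45%). B-lineage cells had 7 of 33 higher, namely Ctsa, Ctss, Neu1, Asah1, Scarb2, Mcoln1 and Atp6v1h, against 9.39%, and 1 lower, Gaa, against 13.5%. Leiden clusters of monocyte-like, B-lineage and neutrophil-lineage cells differed in their share of each library. Of 4 monocyte-like clusters, numbers 9 and 24 held 511 and 211 cells of labelled WT, 395 and 255 of labelled Het, and 0 and 30 of KO. Numbers 16 and 17 held 0 and 4, 27 and 21, and 581 and 582. Among 5 B-lineage clusters, number 7 held 672, 349 and 18 cells and number 30 held 0, 5 and 318. In the neutrophil lineage number 1 held 0, 28 and 1356 cells, number 2 held 90, 1290 and 1, and number 3 held 1240, 83 and 1. Number 19 of this lineage was more even, with 181, 192 and 198. A difference within these classes, also one between the controls, therefore cannot be told apart from one in the stage or state of their cells. The count of higher members was above the background share in macrophage-like and B-lineage cells, close to it in monocyte-like cells and below it in the neutrophil lineage.

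**Figure D2:**
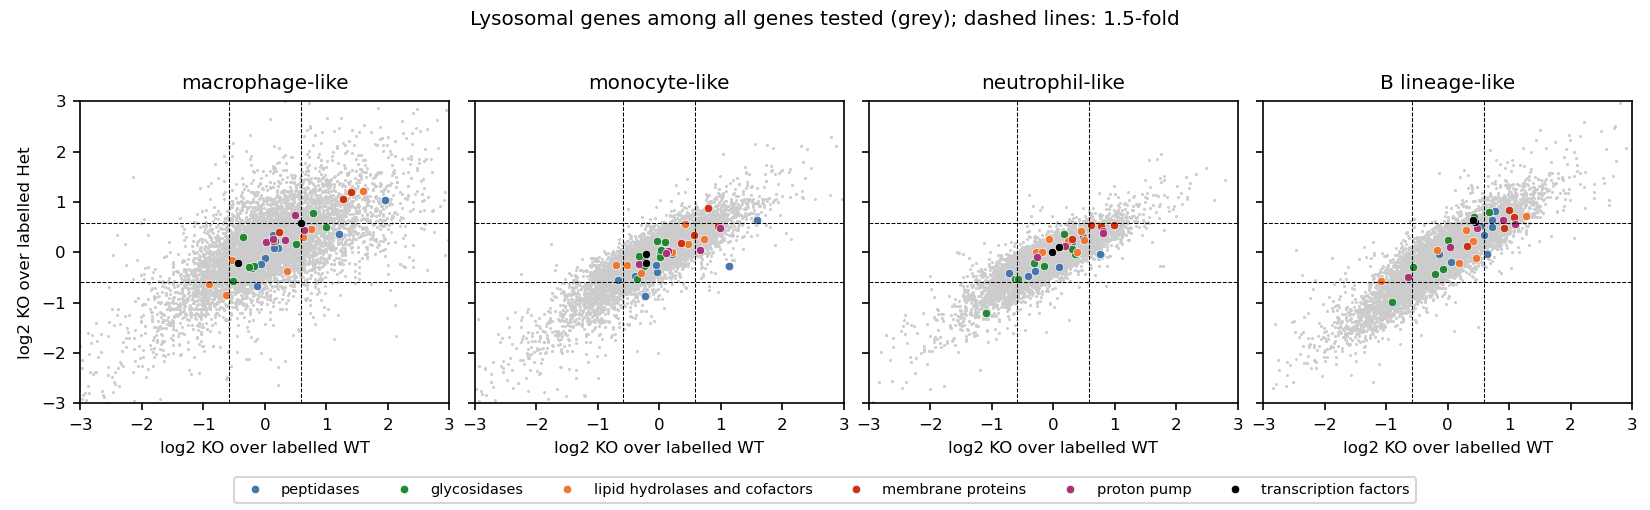
Log2 ratio of KO to labelled WT (x) and to labelled Het (y) for all genes tested (grey) and the lysosomal genes (coloured by kind) in the 4 main classes; dashed lines mark 1.5-fold. Membrane proteins lie up and right of the origin in every class, while other kinds are spread on both sides; both ratios share the KO library.

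Differences of any size whose intervals excluded 1 were read in the same way. By this measure 18 of 33 members were higher than both controls in B-lineage cells (28.7% of all genes) and 4 were lower (28.8%). In macrophage-like cells the counts were 14 higher (11.6%) and 5 lower (8.95%), and in the neutrophil lineage 15 higher (28.7%) and 9 lower (42.8%). Monocyte-like cells had 9 higher (25.8%) and 11 lower (34.8%), a balance that turned under other scalings: 18 and 8 under TMM, 14 and 8 under median-of-ratios and 11 and 10 without the 10 highest genes. In the neutrophil lineage the counts went to 22 and 5 under TMM and under median-of-ratios scaling, where 53.5% and 51.9% of all genes lay above both controls. The median log2 ratios of the members to labelled WT and labelled Het were 0.16 and 0.22 in macrophage-like, 0.02 and -0.03 in monocyte-like, 0.18 and 0.06 in neutrophil-lineage and 0.44 and 0.34 in B-lineage cells. The medians of all genes in the same order were 0.07 and 0.11, -0.08 and -0.05, -0.07 and -0.09, and -0.01 and -0.01. Under TMM scaling the all-gene medians of the neutrophil lineage moved up by 0.26 and 0.29 and those of monocyte-like cells by 0.14 and 0.12. No member changed from one side of both controls to the other within a class under the 3 other scalings (0 in each class). Over all sorted cells Ctsz and Tpp1 did, from below both to above both under TMM and median-of-ratios scaling.

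Of the 31 members tested in all 4 main classes, 4 (Asah1, Lamp2, Mcoln1 and Atp6v0d1) were above both controls in every one, against 4.79% of the 6185 genes tested in all 4. None (0) was below both in all 4, against 2.31%. Asah1 kept this in 3 of 4 classes under median-of-ratios scaling, and the other 3 genes kept it in all 4 under each scaling. Counted without regard to size, KO had the highest level of the 3 libraries in all 8 disjoint classes for Asah1, Scarb2, Mcoln1, Atp6v0d1 and Atp6v1h. Both intervals excluded 1 in only 5, 5, 5, 7 and 4 of these 8 classes, in the order of the genes. The share of all genes with KO highest in all 8 was not counted.

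**Figure D3:**
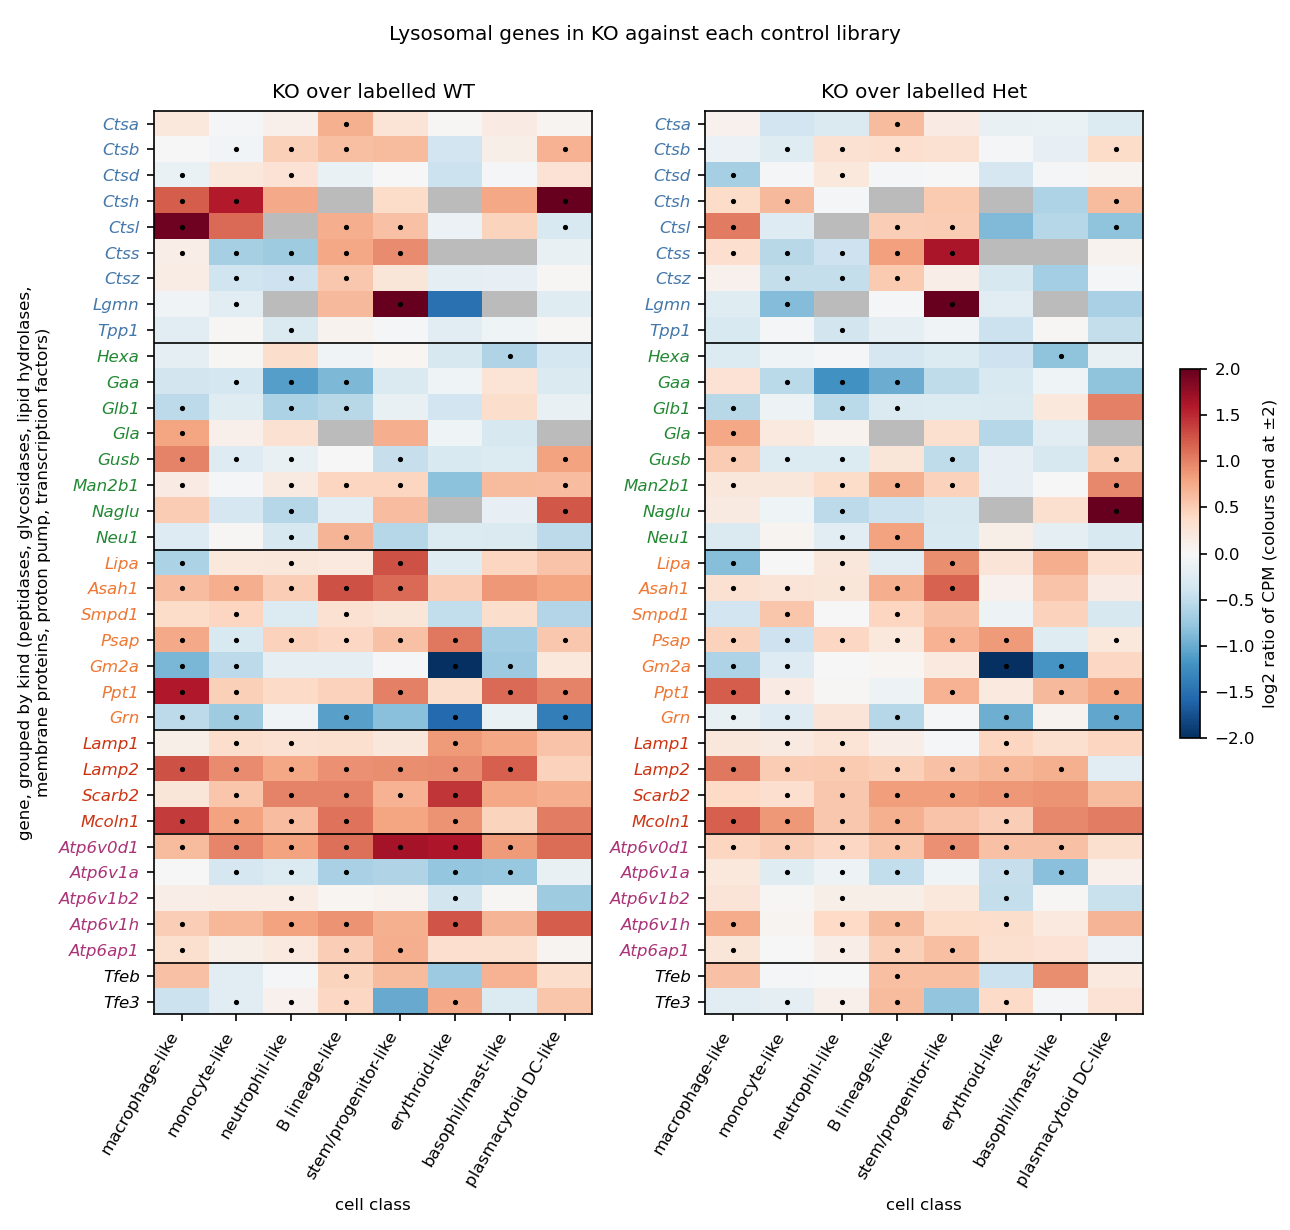
Log2 ratio of CPM in KO to labelled WT (left) and labelled Het (right) for the 35 genes (rows, by kind) in 8 cell classes (columns); grey cells were below the level filter and dots mark genes whose KO value was above both or below both controls with intervals that exclude 1. Lamp2, Scarb2, Mcoln1 and Atp6v0d1 are red across nearly all classes, Gaa, Glb1, Grn and Atp6v1a mostly blue.

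The membrane proteins were the kind with the most even difference. Lamp2, a glycoprotein that lines the lysosomal membrane and takes part in chaperone-mediated autophagy (chromosome X, 38401357 to 38456454, GRCm38), was at 338, 395 and 819 CPM in macrophage-like cells and 253, 343 and 489 CPM in monocyte-like cells. It was at 158, 188 and 272 CPM in the neutrophil lineage and 56.8, 76.7 and 107 CPM in the B lineage. KO was therefore the highest library in each class, and labelled Het lay between labelled WT and KO each time. In macrophage-like cells Lamp2 reached 2.43 times labelled WT (2.03 to 2.91) and 2.07 times labelled Het (1.79 to 2.42). Lamp2 is X-linked, as are Gla, Tfe3 and Atp6ap1, and the part of the sex difference between labelled WT and the other libraries in these genes was not tested. Lamp2 was higher in KO than in labelled Het, as well as labelled WT, in all 4 main classes.

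Mcoln1 encodes a calcium and iron channel of late endosomes and lysosomes (chromosome 8, 3500457 to 3515232). Its levels were 57.1, 66.1 and 153 CPM in macrophage-like, 30.8, 29.3 and 53.7 in monocyte-like, 14.5, 15.3 and 22.2 in neutrophil-lineage and 23.6, 30.5 and 49.9 CPM in B-lineage cells. The controls were close to each other and KO stood above both in every class. The ratio to labelled WT was 2.68 (1.74 to 4.29) in macrophage-like cells, from 24 and 182 UMIs, and its log2 value went from 1.39 to 0.71 and was no longer past the rule with cells thinned to 3000 UMIs. It was 1.74 (1.53 to 1.99) in monocyte-like cells. Scarb2, the receptor that carries glucocerebrosidase to lysosomes, was at 47.3, 52.8 and 94.5 CPM in B-lineage cells and 18.6, 25.4 and 37.0 CPM in the neutrophil lineage. In monocyte-like cells it was at 124, 144 and 183 CPM, and in macrophage-like cells at 357, 320 and 421 CPM, where the interval of KO over labelled WT (0.982 to 1.43) held 1. Lamp1, the most widely used marker of lysosomal membranes, differed less: 449, 506 and 571 CPM in monocyte-like and 101, 103 and 124 CPM in neutrophil-lineage cells, with the KO value the highest in both classes.

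**Figure D4:**
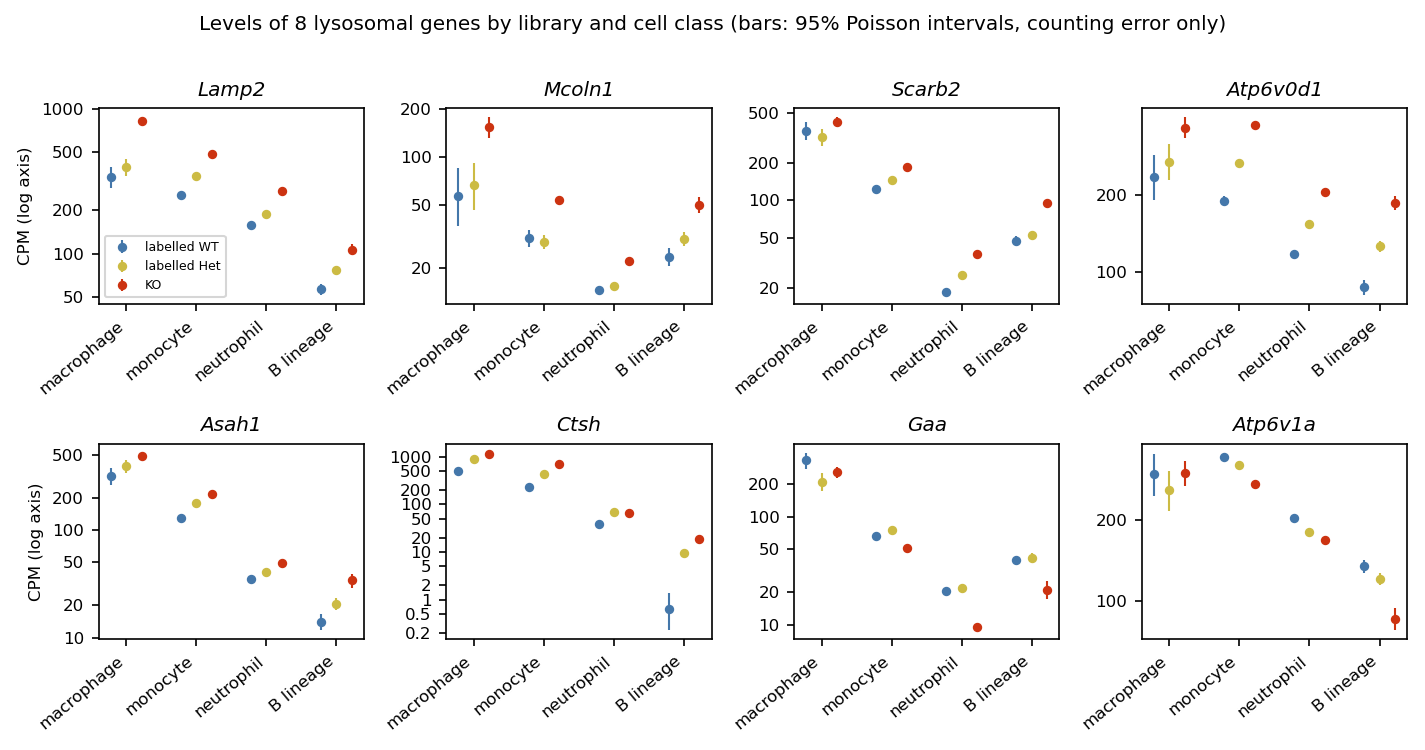
CPM (log axis) of 8 lysosomal genes in the 4 main classes; points are the 3 libraries and bars exact 95% Poisson intervals of the count. KO points lie above both controls for Lamp2, Mcoln1, Atp6v0d1 and Asah1 in every class, and below both for Gaa and Atp6v1a in monocyte-like, neutrophil-lineage and B-lineage cells.

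The parts of the proton pump did not all differ in one direction. Atp6v0d1, a subunit of the membrane sector, was at 236, 270 and 366 CPM in macrophage-like, 189, 267 and 375 in monocyte-like, 118, 154 and 205 in neutrophil-lineage and 87.1, 126 and 186 CPM in B-lineage cells. Labelled Het lay between labelled WT and KO in all 4, and the KO level was 1.33 to 1.48 times labelled Het. Atp6v1h, a regulatory subunit of the catalytic sector, was at 38.0, 50.7 and 66.6 CPM in the neutrophil lineage and 68.2, 81.8 and 127 CPM in the B lineage. In monocyte-like cells its 70.6, 108 and 112 CPM left KO level with labelled Het. Atp6v1a, the subunit that holds the catalytic site, went the other way in 3 of 4 classes, with 343, 320 and 272 CPM in monocyte-like, 203, 180 and 168 in neutrophil-lineage and 134, 121 and 85.5 CPM in B-lineage cells. In macrophage-like cells Atp6v1h was at 112, 93.7 and 158 CPM, with KO above both controls except under median-of-ratios scaling. The neutrophil-lineage difference of Atp6v1a did not hold under TMM or median-of-ratios scaling. Atp6v1b2, another subunit of the catalytic sector, was at 1.02 to 1.20 times either control in the 4 main classes, and the accessory protein Atp6ap1 was at 120, 120 and 168 CPM in B-lineage cells.

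Among the peptidases the controls themselves differed most for Ctsh and Ctsl. Ctsh, an aminopeptidase (chromosome 9, 90054152 to 90076089), was at 229, 439 and 687 CPM in monocyte-like and 495, 893 and 1149 CPM in macrophage-like cells. In the neutrophil lineage it was at 38.9, 67.1 and 65.5 CPM, where KO and labelled Het were level. B-lineage cells held 6, 114 and 102 Ctsh UMIs (0.623, 9.62 and 19.0 CPM), below the level filter. Labelled Het exceeded labelled WT by 1.92-fold in monocyte-like, 1.80-fold in macrophage-like and 1.73-fold in neutrophil-lineage cells, so 2 libraries that both hold Pex2 RNA differed in Ctsh by more than KO and labelled Het did in each of these classes. Ctsl, a cysteine endopeptidase, showed the same order of labelled WT and labelled Het. It was at 324, 606 and 1254 CPM in macrophage-like cells, where KO was 2.07 times labelled Het (1.83 to 2.34). In monocyte-like cells its 114, 301 and 251 CPM put KO between the controls.

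Ctss and Ctsz took opposite sides in different classes. Ctss, the peptidase that cuts the invariant chain of MHC class II, was at 120, 115 and 204 CPM in B-lineage cells, with KO above both controls, as in macrophage-like cells (4118, 3577 and 4530 CPM). In monocyte-like cells it was at 1740, 1599 and 1093 CPM and in the neutrophil lineage at 22.9, 18.5 and 13.9 CPM, with KO below both. The KO B-lineage cells also had the highest summed level of the 9 conventional dendritic markers, at 455, 650 and 1604 CPM, with 3, 1 and 3 of the 9 at 0. These markers include MHC class II genes and Cd74. B-lineage cluster number 10, with Cd74, Ms4a1 and Ighd among its 10 leading genes, held 291, 228 and 359 cells. The part of dendritic cells or of B-cell stage in the Ctss value was not tested. Ctsz, a carboxypeptidase, was at 149, 149 and 215 CPM in B-lineage, 778, 817 and 589 in monocyte-like and 98.9, 103 and 74.5 CPM in neutrophil-lineage cells. Monocyte-like cells also differed in granule-stage neutrophil markers, whose 8 genes summed to 2619, 3228 and 11534 CPM with 0 of 8 at 0 in each library, and the part of these in the monocyte values was not tested.

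The other peptidases had smaller or less uniform differences. Ctsa, which protects the galactosidase Glb1 and the sialidase Neu1 from breakdown, was at 159, 169 and 262 CPM in B-lineage cells and at 500, 634 and 486 CPM in monocyte-like cells. Ctsb, a cysteine peptidase, was at 189, 214 and 264 CPM in the neutrophil lineage, with KO above both controls, and at 974, 1120 and 943 CPM in monocyte-like cells, with KO below both under this scaling only. In macrophage-like cells its 8948, 9672 and 8961 CPM put KO level with labelled WT. The aspartyl protease Ctsd was at 1573, 2265 and 1431 CPM in macrophage-like and 113, 120 and 138 CPM in neutrophil-lineage cells. Lgmn, an asparaginyl endopeptidase, had KO below both controls in monocyte-like cells (68.6, 107 and 58.7 CPM), though not under TMM or median-of-ratios scaling, and in B-lineage cells labelled Het and KO were level at 111 and 109 CPM, above labelled WT at 69.5 CPM. Tpp1, a tripeptidyl peptidase, was below both controls in the neutrophil lineage (53.2, 55.9 and 43.5 CPM), which did not hold under TMM or median-of-ratios scaling.

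Glycosidases were the kind with most members below both controls in the neutrophil lineage (5 of 8) and the B lineage (2 of 7). They were not in macrophage-like cells (1 of 8, with 3 above both) or monocyte-like cells (2 of 8). In the neutrophil lineage Gusb and Neu1 were no longer below both under TMM or median-of-ratios scaling. Gaa, which breaks down lysosomal glycogen (chromosome 11, 119267887 to 119285454), was at 39.5, 42.0 and 21.1 CPM in B-lineage and 20.4, 22.1 and 9.52 CPM in neutrophil-lineage cells. The B-lineage ratios were 0.535 to labelled WT (0.430 to 0.661) and 0.502 to labelled Het (0.406 to 0.617). In monocyte-like cells it was at 66.2, 74.8 and 51.7 CPM, and in macrophage-like cells at 331, 209 and 258 CPM, so there KO lay between the controls. Gaa was highest in promyelocyte-like cells among the neutrophil stages, at 135, 132 and 99.2 CPM. These cells numbered 334, 318 and 172. A CPM is a share of the UMIs of a class. The neutrophil-lineage sum alone therefore does not separate the number of such cells from the Gaa RNA in each. With the 3 stages weighted alike in each library, the log2 ratios of Gaa went from -1.10 and -1.21 to -0.56 and -0.60, below the 1.5-fold rule against labelled WT.

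Glb1, a galactosidase, was below both controls in macrophage-like (143, 147 and 99.9 CPM), neutrophil-lineage (23.5, 22 and 15.2) and B-lineage cells (46.9, 38.7 and 31.7). The B-lineage difference of Glb1 did not hold under TMM or median-of-ratios scaling. In the neutrophil lineage Naglu, an enzyme of heparan sulfate breakdown (14.7, 14.3 and 9.94 CPM), and Neu1 (56.0, 52.0 and 45.0 CPM) were also below both, Neu1 not under TMM or median-of-ratios scaling, while Neu1 in B-lineage cells was above both at 28.5, 25.9 and 45.4 CPM. Macrophage-like cells had higher Gusb, the glucuronidase (264, 371 and 528 CPM), and Gla, the galactosidase whose loss stores globotriaosylceramide (78.5, 79.0 and 137 CPM, from 33, 43 and 163 UMIs). Gusb took the other side in monocyte-like cells at 251, 255 and 211 CPM. Man2b1, a mannosidase, was above both controls in the neutrophil lineage (359, 315 and 406 CPM) and B lineage (84.0, 69.7 and 114 CPM). Hexa, a subunit of hexosaminidase, was above both or below both in 0 of the 4 main classes.

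The lipid hydrolases and cofactors split between higher and lower genes. Asah1, the acid ceramidase, was at 14.0, 20.6 and 34.0 CPM in B-lineage cells, where KO was 2.42 times labelled WT (1.93 to 3.05) and 1.65 times labelled Het (1.36 to 2.01). With cells thinned to 3000 UMIs, Asah1 and Ctsa no longer passed the rule in B-lineage cells. It was at 316, 391 and 485 CPM in macrophage-like, 130, 179 and 215 in monocyte-like and 34.8, 41.2 and 48.9 CPM in neutrophil-lineage cells, again with labelled Het between the others. Ppt1, which removes palmitate from proteins, stood out in macrophage-like cells at 95.2, 125 and 292 CPM (40, 68 and 348 UMIs). Outside them it was at 160, 198 and 221 CPM in monocyte-like and at 187, 277 and 258 CPM in B-lineage cells. Psap, the precursor of the saposins, was above both controls in macrophage-like (1568, 1916 and 2639 CPM) and neutrophil-lineage cells (177, 181 and 242) and below both in monocyte-like cells (2033, 2211 and 1655). Smpd1, the acid sphingomyelinase, was at 45.8, 41.7 and 61.4 CPM in monocyte-like cells.

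Gm2a and Grn were below both controls in more of the 4 main classes than the other genes of this kind, in 2 and 3. In the neutrophil lineage neither lay on 1 side of both controls. There both were above both controls under TMM and median-of-ratios scaling. Among the 4 main classes Lipa was below both controls in macrophage-like cells only and above both in the neutrophil lineage. Lipa, the acid lipase that frees cholesterol from its esters, was at 312, 364 and 202 CPM in macrophage-like cells and at 24.5, 24.5 and 28.7 CPM in the neutrophil lineage. Gm2a, the activator that presents GM2 ganglioside to hexosaminidase, was at 856, 700 and 456 CPM in macrophage-like and 983, 812 and 681 CPM in monocyte-like cells. Neither Lipa nor Gm2a passed the 1.5-fold rule in macrophage-like cells under the stricter gate, from Leiden clusters or without cells that held a Gpnmb UMI. Lipa did not pass it with doublets kept either. Grn, progranulin, was at 4825, 3724 and 3343 CPM in macrophage-like, 1194, 874 and 731 in monocyte-like and 213, 148 and 99.9 CPM in B-lineage cells. In Grn labelled Het was below labelled WT in all 3, with KO lower still.

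Neither transcription factor had a difference that passed the 1.5-fold rule in the 4 main classes. Tfeb RNA was at 38.1, 38.6 and 58.8 CPM in macrophage-like cells, from only 16, 21 and 70 UMIs, with intervals of both KO ratios that held 1. It was above both controls in B-lineage cells at 200, 178 and 271 CPM and level in the neutrophil lineage at 85.2, 83.6 and 83.5 CPM. Tfe3 was at 21.5, 18.4 and 28.6 CPM in B-lineage, 91.3, 90.3 and 78.5 in monocyte-like and 45.9, 45.3 and 48.8 CPM in neutrophil-lineage cells. These are RNA levels and do not report the place or activity of the proteins.

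The macrophage-like cells of KO differed from the controls in Gpnmb, a glycoprotein of lysosomes and phagosomes, at 4.76, 9.19 and 600 CPM (2, 5 and 715 UMIs). A Gpnmb UMI was found in 1, 3 and 52 of the macrophage-like cells, whose median depths were 6562.5, 5113 and 13063.5 UMIs. Within KO, cells with a Gpnmb UMI had 1.39 times the Lamp2 level of those without (1.21 to 1.61) and 1.55 times the Ctsl level (1.38 to 1.75). For Ppt1, Gusb and Mcoln1 the ratios were 1.53, 1.57 and 1.78, with intervals above 1. Gm2a was lower in cells with a Gpnmb UMI, at 0.634 times (0.533 to 0.753). Ctsh, at 0.866 times (0.776 to 0.968), and Lgmn, at 0.922 times (0.857 to 0.992), were lower there too. The share of all genes with such ratios was not counted, and the part of depth in this split was not tested. Without the cells that held a Gpnmb UMI, 38 KO cells remained against 61 and 63. Of the members, 3 (Ctsl, Ppt1 and Lamp2) still passed the 1.5-fold rule, and no share of all genes is given for this setting. Lamp2 was then at 329, 380 and 652 CPM. The 12 macrophage markers summed to 46392, 61730 and 36802 CPM with 0 at 0 in each library. Markers of other cells differed there too, in both directions: 8 mature neutrophil genes summed to 716, 860 and 1782 CPM (0 at 0), 9 conventional dendritic genes to 66.6, 38.6 and 323 CPM (3 at 0 in each) and 6 megakaryocyte genes to 1818, 1310 and 2887 CPM (2, 3 and 2 at 0). Other lists were lowest in KO: 8 granule-stage neutrophil genes summed to 2952, 3746 and 1695 CPM (1, 0 and 0 at 0). The sums were 328, 296 and 131 CPM for 7 promyelocyte genes (2, 0 and 1 at 0). They were 205, 356 and 77.2 CPM for 11 B-lineage genes (1, 2 and 2 at 0) and 685, 748 and 310 CPM for 6 endothelial genes (2, 2 and 0 at 0). The part of these in the macrophage values was not tested.

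The neutrophil lineage was also read by stage. In promyelocyte-like cells 8 of 34 members were higher in KO (background 5.44%) and 0 lower (8.62%). They were Ctsh (16.4, 35.6 and 96.5 CPM), Lamp1 (166, 176 and 288), Lamp2 (191, 240 and 412), Scarb2, Mcoln1, Atp6v0d1 (122, 166 and 266), Atp6v1h and Tfe3 (17.8, 16.9 and 29.0). All 4 membrane proteins were thus among them. The 7 promyelocyte markers of this class summed to 74975, 71214 and 52475 CPM, the 8 granule-stage markers to 14514, 14113 and 18851 and the 8 monocyte markers to 1220, 1064 and 1909, with 0 at 0, and the part of this in the promyelocyte values was not tested. Granule-stage cells, which make up most of the lineage, had 1 of 32 higher, Scarb2 at 13.5, 19.5 and 32.0 CPM (background 2.97%), and 1 lower, Ctss at 18.8, 16.2 and 10.4 CPM (5.9%). Mature cells had 0 of 32 higher, where 12.8% of all genes were, and 1 lower, Lgmn, from 41, 34 and 17 UMIs (5.38%).

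Rarer classes gave counts from few cells. Stem and multipotent progenitor-like cells (91, 127 and 32) had 9 of 35 members higher (background 7.8%) and 0 lower (7.44%), among them Atp6v0d1 at 73.5, 125 and 233 CPM, Ppt1 at 103, 128 and 207 CPM and Asah1 at 37.6, 36.3 and 82.0 CPM. Their median log2 ratios were 0.42 and 0.32, against 0.01 and 0.02 for all genes. Erythroid-like cells (49, 147 and 89) had Psap, Lamp2 and Scarb2 higher (background 6.83%) and Gm2a and Grn lower (8.06%). Grn was at 108, 72.5 and 36.7 CPM in them. The erythroid-like medians went the other way, at -0.20 and -0.16, against -0.01 and -0.01 for all genes. Basophil or mast-like cells (49, 34 and 34) had Ppt1 and Lamp2 higher (7.46%) and Hexa, Gm2a and Atp6v1a lower (5.39%). Their medians were 0.27 and 0.02, against 0.06 and 0.06. Plasmacytoid dendritic-like cells (73, 32 and 22) had 4 higher (5.8%), including Ctsh at 367, 972 and 1501 CPM. In these cells 1 was lower (8.07%), Grn, at 2948, 2326 and 1134 CPM. Their medians were 0.32 and 0.18, against 0.0003 and -0.04.

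Labelled Het against labelled WT shows how far 2 libraries that both contain Pex2 RNA differed. At 1.5-fold with an interval excluding 1, Ctsh and Ctsl were higher in labelled Het over all sorted cells (4.29% of all genes; 2.13% were lower). In macrophage-like cells these 2 were higher (6.23%) and Gaa lower (7.24%). In monocyte-like cells Ctsh, Ctsl, Lgmn and Atp6v1h were higher (4.69%) and 0 members lower (3.51%). The neutrophil lineage had Ctsh higher (4.03%) and 0 lower (2.23%), and B-lineage cells Lgmn higher (2.94%) and 0 lower (3.42%). None (0) of the membrane proteins reached 1.5-fold between the controls in the 4 main classes, although Lamp2 was 1.35 times as high in labelled Het as in labelled WT in monocyte-like and in B-lineage cells.

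Other genes of the lysosome, 110 from a wider list of 111, gave the setting of these values. In macrophage-like cells 22 of 105 were higher and 8 lower by the 1.5-fold rule (9.19% and 6.63% of all genes), led by Gpnmb, by Gnptab, which makes the mannose 6-phosphate tag of hydrolases (42.8, 40.4 and 166 CPM), and by Sort1, a sorting receptor (71.4, 82.7 and 314 CPM). B-lineage cells had 19 of 95 higher and 3 lower (9.39% and 13.5%), among them Ostm1, the partner of the lysosomal chloride exchanger (41.0, 53.4 and 107 CPM). In monocyte-like cells 10 of 102 were higher and 5 lower (5.4% and 10.7%), led by Ctsc, the peptidase that activates granule proteases (1782, 1885 and 838 CPM), Prcp, a carboxypeptidase (71.8, 93.3 and 193), and Fnip1, a partner of folliculin (35.5, 42.7 and 84.0). The neutrophil lineage had 3 of 93 higher and 4 lower (2.64% and 9.45%), near or below the background, and the lower genes included the phospholipase Pla2g15 (34.7, 32.7 and 18.4 CPM) and the iduronidase Idua (12.4, 12.4 and 7.25 CPM).

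Promoters were read because Tfeb and Tfe3 bind a short motif near the start of many lysosomal genes. Promoter windows of 250 bases before to 50 after the start were found for 30 of the 35 genes in RefSeq (GRCm38.p6). The letters TCACGTG, on either strand, occurred in 11 of the 30 (36.7%) and in 4.29% of 27025 genes, and the shorter CACGTG, which lies within them, in 12 of 30 (40%) and 8.09%. Those with TCACGTG were Ctsa, Ctsd, Lgmn, Gaa, Glb1, Gla, Naglu, Lamp1, Mcoln1, Atp6v0d1 and Atp6v1a. The stretches below are shown for the 5 of them whose KO level lay on the same side of both controls in at least 3 of the 4 main classes. Capitals mark the letters that match on either strand, and sequences run 5′ to 3′ along the gene. The windows are Mcoln1 (chr8:3500425-3500502, plus strand), Atp6v0d1 (chr8:105566061-105566090, minus), Gaa (chr11:119267800-119267850, plus), Glb1 (chr9:114401007-114401057, plus) and Atp6v1a (chr16:44139362-44139413, minus).
Mcoln1: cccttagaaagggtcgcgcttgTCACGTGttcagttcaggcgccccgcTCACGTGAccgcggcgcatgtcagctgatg
Atp6v0d1: taagagccaggccctactgcggTCACGTGA
Gaa: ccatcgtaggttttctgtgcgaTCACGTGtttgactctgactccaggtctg
Glb1: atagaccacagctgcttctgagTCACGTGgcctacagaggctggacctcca
Atp6v1a: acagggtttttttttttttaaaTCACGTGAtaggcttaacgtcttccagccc
Windows are placed by the RefSeq start. The Atp6v0d1 match spans that start, and by the gene annotation the second Mcoln1 match and the Atp6v1a match lie inside the gene. The same letters thus occurred in the windows of genes that were higher in KO in at least 3 classes (Mcoln1, Atp6v0d1) and of genes that were lower (Gaa, Glb1, Atp6v1a). In B-lineage cells the 10 tested members with the motif had median log2 ratios of 0.09 and -0.03, and the 19 without it 0.44 and 0.48. In macrophage-like cells the medians were 0.12 and 0.21 for 11 with the motif and 0.16 and 0.22 for 19 without, and in monocyte-like cells -0.04 and -0.08 for 11 and 0.02 and -0.03 for 19. The neutrophil lineage had 0.20 and -0.02 for 10 with it and 0.03 and 0.01 for 18 without. Against labelled WT the order of the groups was thus not the same in every class. Against labelled Het the median was lower with the motif in each of the 4 main classes, by most in B-lineage cells. A match is a description of the letters and says nothing about binding.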

How the data were processed

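Single-cell RNA was measured with gene-specific probes in 3 libraries. Per the labels' protocols, livers were strained, spun slowly to remove hepatocytes and treated to lyse red cells, and viable CD45+ cells were sorted. The deposited values are whole-number UMI counts, made by the authors with Cell Ranger 7.0.0 and mm10 per the submitters' processing notes. Scrublet (scanpy 1.11.5) marked 273, 186 and 298 barcodes as doublets, which were left out. The other 9327, 7814 and 7947 cells were classed from 18 marker lists, by the highest mean marker score if it was at least 0.2 and led by at least 0.1; 351, 304 and 306 had no class, and another annotation could give other names. UMIs were summed per library and class (CPM of the class total), and 0.5 counts were added for log2 ratios. Intervals are exact Poisson for counts and exact conditional binomial for ratios. Total UMIs were 96629431, 144589956 and 186295183. Probes read part of a transcript, so levels of different genes are not compared. The members, lists and rules were chosen with earlier results of these data known. Genes are named when they passed the 1.5-fold rule, led their kind in a class, lay on opposite sides of the controls in different classes or differed 1.5-fold between controls, with genes among the 3 leading ones of the wider list per class; some of these are not reported here. Alternatives changed the scaling (edgeR 4.0.16 TMM, DESeq2 1.42.0 size factors), gate, doublets, depth, filter and fold. The ratio code was tested on simulated data. Gene positions are from the GRCm38 annotation.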

Additional observations from a re-analysis of the deposited data

Results flagged for a closer look

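Ctss and Ctsz lay above both controls in B-lineage cells and below both in monocyte-like and neutrophil-lineage cells, and the difference between classes was not tested. For Ctss the log2 ratios to labelled WT and labelled Het were 0.77 and 0.82 in B-lineage, -0.67 and -0.55 in monocyte-like and -0.72 and -0.41 in neutrophil-lineage cells. For Ctsz they were 0.53 and 0.53, -0.40 and -0.47, and -0.41 and -0.47.
Gusb, Neu1, Lipa, Psap, Ctsb, Ctsd and Tfe3 also lay on opposite sides of both controls in different main classes, by smaller ratios in at least 1 of the classes, and these differences were not tested either. For 4 of them 1 side was lost under another scaling: Ctsb in monocyte-like cells under all 3, Tfe3 in monocyte-like and Neu1 in neutrophil-lineage cells under TMM and median-of-ratios scaling, and Ctsd in macrophage-like cells without the 10 highest genes.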

How the results depend on the processing

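No paired analysis was possible because each genotype had 1 library. Counts of members higher and lower in KO by the 1.5-fold rule were 4 and 1 over all sorted cells, 5 and 2 in macrophage-like, 2 and 0 in monocyte-like, 0 and 1 in neutrophil-lineage and 7 and 1 in B-lineage cells. The following counts moved by over 1.5 times; the cause was not tested, unless the setting itself is a looser or stricter rule. Over all sorted cells there were 11 higher under TMM scaling, 9 under median-of-ratios scaling, 9 at a looser fold (5 to 4), 0 at 2-fold and 1 with classes weighted alike, and lower counts were 0 under TMM, median-of-ratios, the total without the 10 highest genes, doublets kept, thinning to 3000 UMIs, 2-fold and classes weighted alike, and 2 at the looser fold. In macrophage-like cells 11 were higher from Leiden clusters, 10 at the looser fold and 3 without cells holding a Gpnmb UMI, and lower counts were 0 under the stricter gate, Leiden clusters, 2-fold and without Gpnmb cells, and 1 with doublets kept. In monocyte-like cells 4 were higher under TMM, 6 at the looser fold and 0 at 2-fold, with 1 lower under the stricter gate and thinning and 3 at the looser fold. In the neutrophil lineage 7 were higher under TMM, 6 under median-of-ratios and at the looser fold, 1 from Leiden clusters, with doublets kept and with stages weighted alike, and 2 with thinning; lower counts were 2 without a level filter, 5 at the looser fold and 0 with stages weighted alike. In B-lineage cells 16 were higher at the looser fold and 0 at 2-fold, and lower counts were 2 under the stricter gate, thinning and no level filter, 3 at the looser fold and 0 at 2-fold. The share of all genes counted as higher moved as well: over all sorted cells to 11.7% under TMM, 10.4% under median-of-ratios and 8.69% at the looser fold, in macrophage-like cells to 11.5% from Leiden clusters and 11.4% at the looser fold, in monocyte-like cells to 8.61% under TMM and 14.1% at the looser fold, in the neutrophil lineage to 10.96% under TMM, 9.75% under median-of-ratios and 9.79% at the looser fold, and in B-lineage cells to 20.4% at the looser fold. The share of all genes counted as lower over all sorted cells was 13.7% by the main rule. It was 6.08% under TMM, 6.31% under median-of-ratios, 12.2% without the 10 highest genes, 13.4% with doublets kept and 9.15% with thinning. The remaining counts that moved are given without a share of all genes. Reversed signs were the monocyte-like median against labelled Het (0.0974 under TMM, 0.0652 under median-of-ratios, 0.0257 without the 10 highest genes), that against labelled WT (-0.0458 from Leiden clusters, -0.00308 with thinning), and Gm2a against labelled Het in macrophage-like clusters (0.00959). Depth limits macrophage-like values most, where several genes had under 50 UMIs in a control.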
